A study of Homo sapiens with 20 samples.

Results

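Of the 14939 RAD21 peaks of RPE-1 cells on chromosomes 1 to 22 and X of hg38, 4770 (31.9%, Wilson 95% interval 31.2 to 32.7) overlapped by at least 1 bp a peak in each of 5 other lists: SA1 and SA2 of the same cells, and RAD21, SA1 and SA2 of CHM13 cells. These 4770 places, called shared sites here, were chosen by that overlap alone, and the remaining 10169 RPE-1 RAD21 peaks miss at least 1 list. ChIP-seq was performed in 2 cell lines, RPE-1 (retinal pigment epithelium, 2 replicates per subunit) and CHM13 (derived from a complete hydatidiform mole, 3 replicates per subunit), with input chromatin from each, 20 libraries in all. Both lines are immortalised with hTERT and no treatment, knockdown or time course separates the groups, so each list stands for untreated cells of 1 line. CHM13 chromatin for ChIP carried a small addition of Drosophila Kc167 chromatin, the RAD21 antibody differed between the lines, and RPE-1 and CHM13 chromatin were sonicated on different instruments, so that none of these can be told apart from the cell line. The 6 lists give the position of each peak after pooling of replicates, with no height and no read depth. Intervals on shares therefore cover counting error only, there is no replicate error, and every test compares peaks of these lists.

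Cohesin is a ring of SMC1A, SMC3 and RAD21 that holds sister chromatids together and extrudes loops of chromatin. SA1 and SA2, encoded by STAG1 and STAG2, are alternative subunits that bind RAD21 in separate complexes, so that a peak of both in a population of cells means that each variant was found there in some cells or alleles. CTCF, a zinc-finger protein, halts the ring when the N-terminal side of CTCF faces the advancing loop, and it binds a motif with a direction. Facing pairs of CTCF motifs therefore commonly lie at the 2 ends of a loop.

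Sequences of 9 sites show the kinds of sequence that occurred. The first 5 lie in introns of the genes with the most shared sites, as the plus strand or minus strand of hg38 reads, and each holds 1 match to the core of the CTCF motif. Capitals mark that match, to CCANNAGNNGGC, searched on both strands.
KALRN intron, chr3:124560002-124560061, minus strand: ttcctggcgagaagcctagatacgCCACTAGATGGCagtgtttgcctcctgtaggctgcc
KALRN intron, chr3:124565098-124565157, plus strand: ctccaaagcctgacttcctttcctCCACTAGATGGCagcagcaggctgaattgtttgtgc
NTM intron, chr11:131694975-131695034, plus strand: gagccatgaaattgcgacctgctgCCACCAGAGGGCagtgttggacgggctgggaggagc
KCNMA1 intron, chr10:76984974-76985033, minus strand: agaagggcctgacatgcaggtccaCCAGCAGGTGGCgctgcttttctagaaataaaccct
NAV1 intron, chr1:201704352-201704411, minus strand: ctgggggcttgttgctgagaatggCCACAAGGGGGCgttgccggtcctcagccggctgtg

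The other 4 hold no match to the core. A site beside the start of RAB11FIP5, a gene of vesicle transport, is shown because the bases shared by its 6 peaks are centred 20 bp from the start. A pair of 60-base stretches from a tandem array on chromosome X, in introns of the non-coding genes DANT1 and DANT2, is shown because the 2 repeat units have the same letters. The last, from an intergenic cluster on chromosome 16, shows a simple repeat, with capitals on GAATG (the complement of CATTC).
RAB11FIP5 start, chr2:73156711-73156770, plus strand: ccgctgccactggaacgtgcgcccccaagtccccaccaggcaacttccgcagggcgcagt
DANT1 and DANT2 array, first shared site, chrX:115844195-115844254, plus strand: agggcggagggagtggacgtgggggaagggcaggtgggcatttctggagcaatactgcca
DANT1 and DANT2 array, next shared site, chrX:115847176-115847235, plus strand: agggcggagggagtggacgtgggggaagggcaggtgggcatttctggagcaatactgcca
Chromosome 16 cluster, chr16:46401150-46401209, plus strand: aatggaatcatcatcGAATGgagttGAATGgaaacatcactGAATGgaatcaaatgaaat

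Which list a peak missed was uneven, and the SA lists of RPE-1 cells set the number of shared sites. Of all 14939 RPE-1 RAD21 peaks, 97.1% overlapped the CHM13 RAD21 list, 92.9% the CHM13 SA1 list and 92.8% the CHM13 SA2 list. In RPE-1 cells themselves 56.3% overlapped an SA1 peak and 37.6% an SA2 peak. A RAD21 peak that lay in both SA lists of RPE-1 cells was a shared site in 4770 of 4845 cases (98.5%). Among the 4206 peaks that missed exactly 1 list, 3445 (81.9%) missed SA2 of RPE-1 cells and 743 (17.7%) missed SA1 of RPE-1 cells, whereas 3 missed RAD21, 4 missed SA1 and 11 missed SA2 of CHM13 cells. Of the 4608 peaks that missed exactly 2 lists, 4542 (98.6%) missed both SA lists of RPE-1 cells. As a share of each list, the shared sites took up 74.6% of the 6389 SA2 peaks and 44.5% of the 10707 SA1 peaks of RPE-1 cells. They took up 12.5% of 38153 SA1 peaks, 10.7% of 44374 SA2 peaks and 6.46% of 73739 RAD21 peaks of CHM13 cells.

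**Figure D1:**
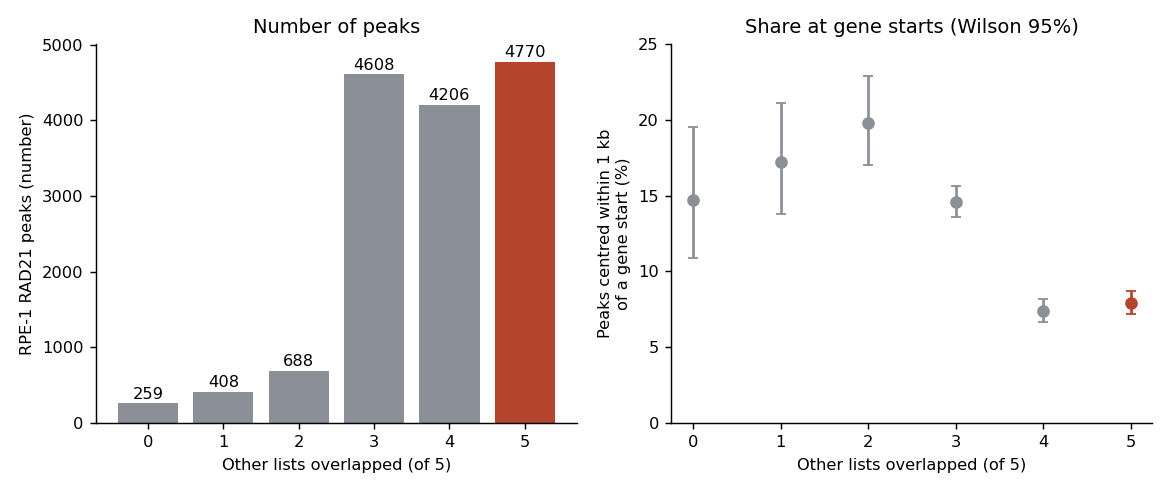
RPE-1 RAD21 peaks grouped by the number of other lists they overlap (0 to 5, x axis). The left panel gives the number of peaks and the right panel the percent centred within 1 kb of a gene start with Wilson 95% intervals; 4770 peaks overlapped all 5 lists, and 7.90% of them lay at a gene start against 7.37% at 4 lists and 14.6% at 3.

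The RPE-1 SA2 list stood apart from the others. It held 6389 peaks on hg38 and 9579 on the CHM13 v1.0 assembly, a ratio of 0.667, while the ratio was 0.929 to 1.03 for the other 5 lists. By the same rule on CHM13 v1.0, 6209 of 16078 RPE-1 RAD21 peaks (38.6%) were in all 6 lists. Without the requirement of an RPE-1 SA2 peak, the number on hg38 was 8215 instead of 4770, and the 4 shares tested below are given with and without it. Widths, spacing, chromosomes and gene lists are given with it.

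The overlaps were not borderline. Over the shared sites, the smallest overlap with any of the 5 lists was 222 bp, and the next smallest were 225 and 225 bp. The peak that came nearest to joining them lay 321 bp from the one list it missed, followed by peaks at 343 and 349 bp, and the median distance to the missed list was 109515 bp over the 4206 peaks that missed exactly 1. All 6 peaks had at least 100 bp in common at 4767 of 4770 shared sites, and at the other 3 they shared no base. The stretch in common had a median of 349 bp (quartiles 313 and 387).

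At these sites the width of a peak was ordered by cell line and then by subunit. In RPE-1 cells RAD21 peaks had a median width of 511 bp, SA1 peaks 429 bp and SA2 peaks 367 bp. In CHM13 cells RAD21 peaks reached 862 bp, SA1 peaks 735 bp and SA2 peaks 716 bp. The CHM13 RAD21 peak was the widest of the 6 at 91.9% of the sites, and the RPE-1 SA2 peak was the narrowest at 75.9%. The CHM13 RAD21 peak covered the whole RPE-1 RAD21 peak at 98.3% of the sites, with a median width ratio of 1.74. The centres nevertheless lay close together. The median distance from the centre of the RPE-1 RAD21 peak was 22 bp to the RPE-1 SA1 centre, 25 bp to the RPE-1 SA2 centre, 29.5 bp to the CHM13 SA1 centre, 30 bp to the CHM13 SA2 centre and 36 bp to the CHM13 RAD21 centre. Each list merges the peaks of its replicates, 3 for CHM13 and 2 for RPE-1 cells. The lists do not record read depth, but the paper reports more uniquely mapped reads for most CHM13 than RPE-1 ChIP libraries. The part of either in these widths was not tested.

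In every list the peaks at shared sites were wider than the other peaks of that list. Among those other peaks the RPE-1 medians were 410 bp (RAD21), 370 bp (SA1) and 336 bp (SA2), and the CHM13 medians were 706, 589 and 588 bp in the same order. No test was made of this, since overlap depends on width. From the narrowest quartile of RPE-1 RAD21 peaks to the widest, the percent that were shared sites was 7.29, 20.6, 40.4 and 59.7. Across the 4770 sites, widths ranked alike within CHM13 cells (Spearman's rho 0.767 for RAD21 with SA1, 0.707 for RAD21 with SA2 and 0.681 for SA1 with SA2). In RPE-1 cells rho was 0.533 for RAD21 with SA1, 0.194 for RAD21 with SA2 and 0.274 for SA1 with SA2. These values describe the 4770 sites, with replicates pooled in each list, and carry no test.

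**Figure D2:**
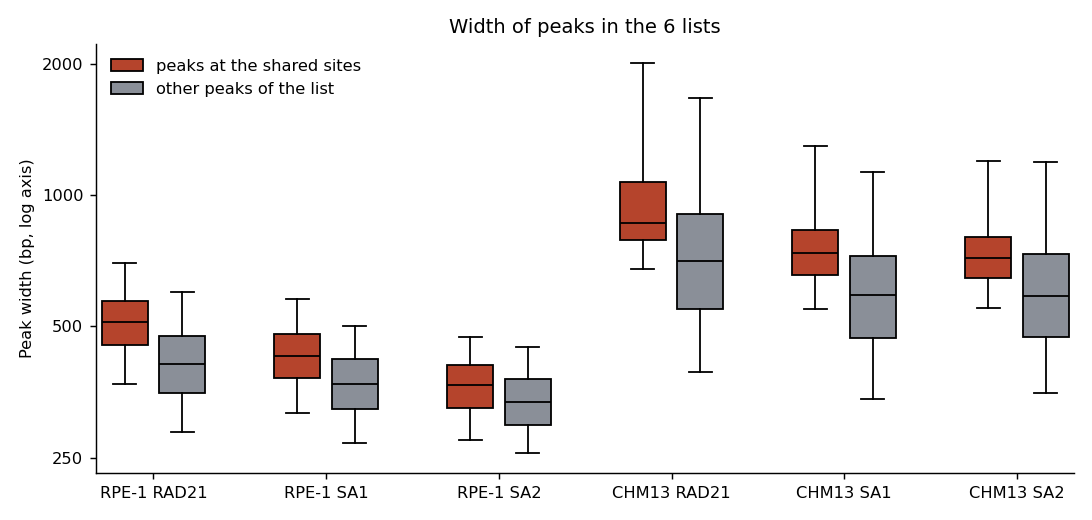
Width in bp (log axis) of the peaks at shared sites (red) and of the other peaks (grey) in each of the 6 lists. Boxes span the quartiles with a line at the median, whiskers run from the 5th to the 95th percentile; medians at shared sites run from 367 bp for RPE-1 SA2 to 862 bp for CHM13 RAD21, and each lies above that of the other peaks.

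Single sites ranged widely around these medians. The widest shared site in the RPE-1 RAD21 list, 591 bp from the start of ALCAM, a cell adhesion gene, had an RPE-1 RAD21 peak of 1858 bp, an SA1 peak of 553 bp and an SA2 peak of 314 bp. In CHM13 cells, in that order, they measured 5736, 5026 and 1887 bp. The next, 584 bp from the start of THBS1, which encodes the matrix protein thrombospondin 1, had RPE-1 peaks of 1646 bp (RAD21), 746 bp (SA1) and 299 bp (SA2), and CHM13 peaks of 3858, 3687 and 2434 bp. Both sites were wide for RAD21 in both lines while their RPE-1 SA2 peak was below the median of 367 bp. The next 3 were 1473 bp (a site 408518 bp from THBS1), 1459 bp (nearest FBRSL1) and 1430 bp (nearest MASP1, a serine protease of the complement system). The narrowest 5 measured 244 to 271 bp for RPE-1 RAD21 and lay nearest to SAMD9, ADAMTS20, PTPRB, CADM3 and STIM2, at 25098 to 1367617 bp from those protein-coding starts. The site nearest STIM2 lay 751 bp from the start of a lncRNA gene. The site nearest SAMD9, 244 bp wide for RPE-1 RAD21, was 997 bp wide for CHM13 RAD21.

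The shared sites were spread over all 23 chromosomes at 1.64 per Mb of sequence. The distance from one to the next had a median of 272312 bp (95% interval 259425 to 285286, n = 4747; quartiles 109986 and 639554.5), from 792 bp to 22593333 bp. For the more numerous peaks that miss a list the median was 129724.5 bp, and for all RPE-1 RAD21 peaks 86232 bp. Another shared site lay within 10 kb of 4.95% of them and within 100 kb of 39.7%, and 3.73% had none within 1000 kb. Of 30321 bins of 100 kb, 26119 held none, 3684 held 1, 477 held 2, 39 held 3, and 1 each held 6 and 9.

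Density was lowest on chromosome X (0.42 per Mb) and highest on chromosome 19 (2.75 per Mb), with a median of 1.67 over chromosomes. As a percent of a chromosome's RPE-1 RAD21 peaks, shared sites ran from 18.6 on X to 41.1 on chromosome 10, followed by 38.1 on chromosome 12, with a median of 31.1. Chromosome 19, the densest, held 28.8%. On X, 39.4% of the RAD21 peaks overlapped RPE-1 SA1 and 30.6% overlapped RPE-1 SA2, while 97.1% overlapped CHM13 RAD21. On chromosome 10, 61.4% overlapped RPE-1 SA1 and 46.4% RPE-1 SA2. DNA copy number of the chromosomes was not examined in either line, and its part in these percents was not tested. The 2 longest intervals without a shared site, leaving out those with a run of unknown bases over 50 kb, were on X, at 22.6 and 17.8 Mb. The first, X:78092782-100685637 between the sites nearest TAF9B and SRPX2, held 35 protein-coding gene starts and 4 RAD21, 3 SA1 and 0 SA2 peaks of RPE-1 cells, against 93 RAD21, 57 SA1 and 63 SA2 peaks of CHM13 cells. The second, between IGSF1 and IDS, held 36 RPE-1 RAD21 and 169 CHM13 RAD21 peaks.

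**Figure D3:**
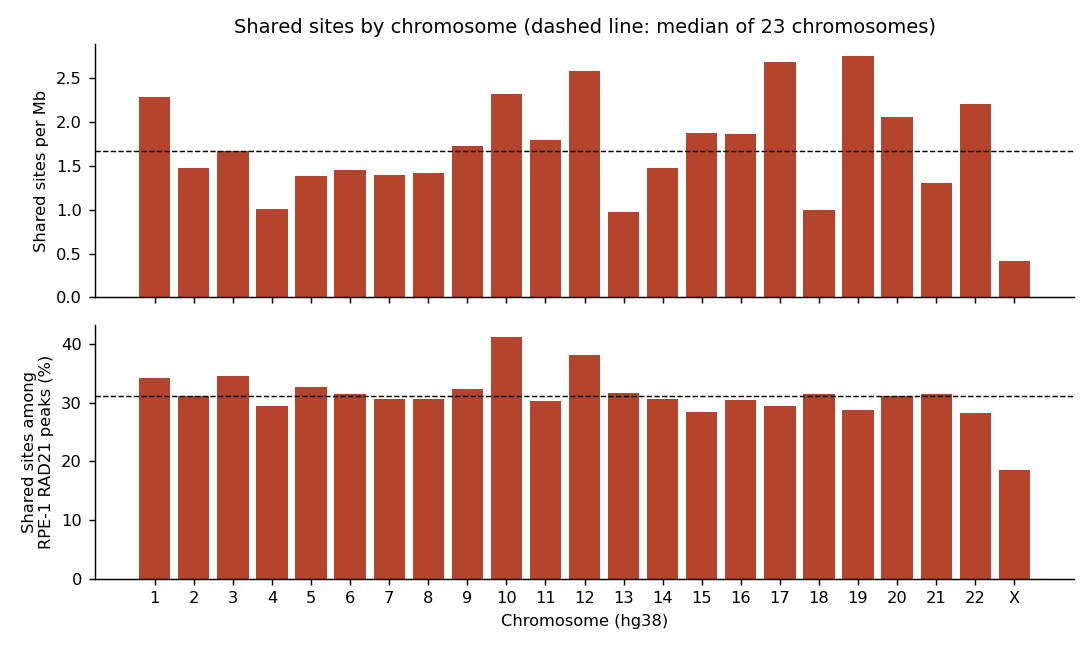
Shared sites per Mb (upper panel) and as a percent of RPE-1 RAD21 peaks (lower panel) on each chromosome of hg38, with the median over 23 chromosomes dashed. Chromosome X is lowest in both (0.42 per Mb, 18.6%), chromosome 19 is densest (2.75 per Mb) and chromosome 10 has the highest percent (41.1).

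The most crowded bin, X:115800001-115900000, held 9 shared sites in introns of DANT1 and DANT2, non-coding genes of the DXZ4 tandem repeat, an array known for CTCF binding on the inactive X chromosome. Their RPE-1 RAD21 peaks measured 506 to 768 bp and RPE-1 SA2 peaks 494 to 536 bp. No match to the CTCF core was found at any of these 9 sites, even with any 1 of its fixed bases free. A 300-bp stretch of the first site was found without a mismatch (100% identity) near the centre of each of the other 8, at steps of 2981, 2981, 2983, 5970, 2991, 5968, 5966 and 5962 bp, that is, 1 or 2 repeat units. With 10 kb on either side, this stretch held 16 peaks in the RPE-1 RAD21 list, 16 in RPE-1 SA2 and 16 in each CHM13 list, but 9 in RPE-1 SA1. Reads from identical units cannot be assigned to one of them, so which units were bound, and whether 9 or 16, cannot be told.

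The next bin held 6 shared sites, and the closest pair, 792 bp apart, lay just beyond its edge. Together these 8 sites form a cluster at 16:46387716-46401526, with no annotated gene at their centres, 220199 to 233490 bp from the nearest protein-coding start, SHCBP1. Their windows had 33.7 to 38.0% GC, and 15.0 to 28.3% of their bases lay in copies of CATTC or its complement GAATG, the letters of a simple satellite repeat, against a median of 0 over all shared sites. In the other lists 1 peak often spanned several of them: the 3 last sites lay in a single RPE-1 SA1 peak of 3213 bp. Placement of reads in such repeats is uncertain, as in the X array. The sites of these 2 places are counted among the 4770. Such copies were not confined to this cluster, and over all shared sites they reached 53.3% of a window. Placement of reads in repeats elsewhere was not examined. The third bin, 1:3400001-3500000, held 3 sites around PRDM16, ARHGEF16 and MEGF6 and is 1 of 39 bins with that number.

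The core of the CTCF motif, CCANNAGNNGGC, occurred within 300 bp around the RPE-1 RAD21 centre at 1619 of 4770 shared sites (33.9%, 32.6 to 35.3) and at 3300 of 10169 peaks that miss a list (32.5%, 31.5 to 33.4). The difference was 1.49 points (-0.126 to 3.12; odds ratio 1.07, Fisher's exact test, two-sided, adjusted p = 0.0731), and the shared sites were higher on 13 of 23 chromosomes. It did not pass the threshold of 0.05. It passed, with shared sites higher, in 4 other settings: against peaks that missed exactly 1 list (odds ratio 1.12), with 50% overlap of both peaks (1.22), by chromosome (1.08) and by GC quartile (1.09). In 3 settings the odds ratio was below 1 (0.944 to 0.984), and none of these passed. In the other 6 settings it was 1.01 to 1.09 and did not pass. Among these it was 1.01 without the requirement of an RPE-1 SA2 peak, and 1.01 by width and GC quartile together. The letters were common at cohesin peaks of RPE-1 cells as such. Windows of the same length 2 kb to either side of the shared sites held them in 1.28% and 0.922%, and 2.41% of 35116 RefSeq promoter windows of 300 bases (GRCh38.p14) held them. Among the other peaks of the RPE-1 SA lists, the core was present in 28.7% (SA1) and 26.7% (SA2). Among the peaks of CHM13 cells away from the shared sites, it was present in 11.2% (RAD21), 18.5% (SA1) and 15.6% (SA2). With windows on the CHM13 RAD21 centre instead of the RPE-1 one, 1378 of 4770 shared sites held it. So did 2909 of the 9737 other RPE-1 RAD21 peaks that overlap a CHM13 RAD21 peak. Among shared sites, 66.1% held no match, 33.1% held 1, 36 sites held 2 and 3 sites held 3. With any 1 of its fixed bases free, 3932 of 4770 shared sites and 8258 of 10169 others held a match. An absent match says that these letters are not in the window.

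Matches lay near the centre of the peak. At shared sites the median distance was 29 bp and 73.3% of 1663 matches lay within 50 bp. At peaks that miss a list it was 25 bp and 81.2% of 3384. Within a window of 100 bp the order of the shares was accordingly reversed, with 1126 of 4770 shared sites and 2507 of 10169 others holding a match (odds ratio 0.944, Fisher's exact test, adjusted p = 0.171).

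The direction of the motif changed with distance to the next site. Among 1580 shared sites with exactly 1 match, 787 were on the plus and 793 on the minus strand. Of the 1557 neighbouring pairs of such sites, 422 faced each other and 421 faced away. For the 132 pairs within 100 kb, 20 faced each other (15.2%, 10.0 to 22.2), 65 faced away (49.2%, 40.9 to 57.7) and 47 were on the same strand. For the 21 pairs within 20 kb, 0 faced each other, which allows a share of up to 15.5% (Wilson), and 12 faced away. From 100 to 500 kb, 129 of 425 (30.4%) faced each other and 104 (24.5%) faced away. Among peaks that miss a list, 17.7% of 617 pairs within 100 kb faced each other, 33.4% (29.8 to 37.2) faced away and 48.9% were on the same strand, the most common class there. Within 20 kb, 14 of their 190 pairs (7.37%) faced each other and 39.5% faced away. At 100 to 500 kb, 30.0% of their 1190 pairs faced each other and 25.9% faced away. The pair in KALRN shown above, on the minus and then the plus strand, is one that faces away. These pairs were examined after the strands were seen, they skip sites without a match, and no test was made of them.

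**Figure D4:**
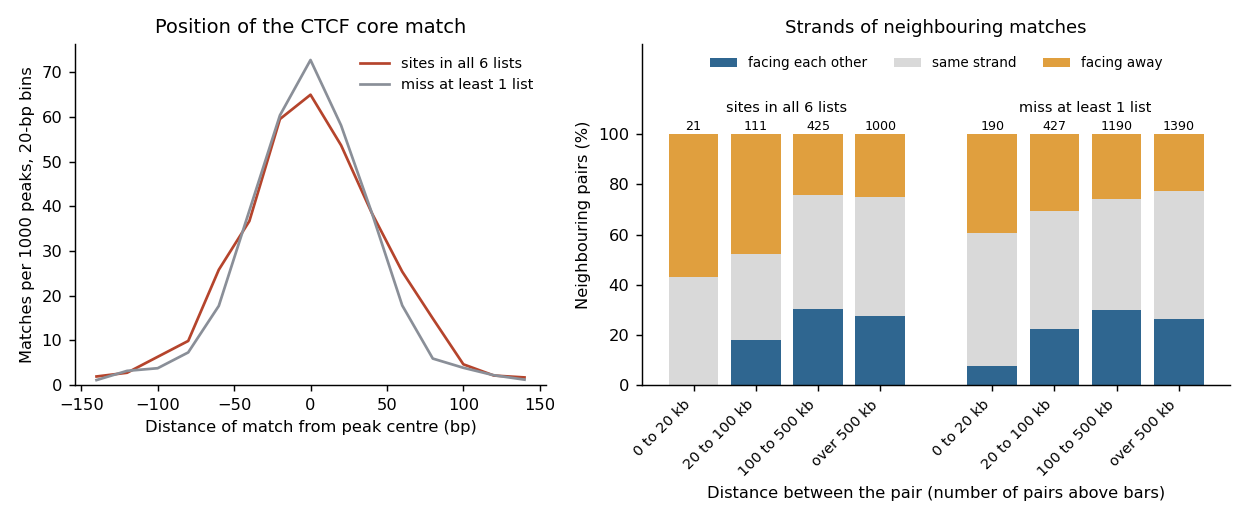
Left, matches to the CTCF core per 1000 peaks in 20-bp bins by distance in bp from the RPE-1 RAD21 peak centre, for shared sites (red) and peaks that miss a list (grey). Right, percent of neighbouring one-match peaks whose motifs face each other, lie on the same strand or face away, by distance, with the number of pairs above each bar. At shared sites 0 of 21 pairs within 20 kb and 30.4% of 425 pairs at 100 to 500 kb faced each other. At peaks that miss a list these were 14 of 190 and 30.0% of 1190.

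Shared sites lay less often at gene starts than the other RPE-1 RAD21 peaks taken as a whole. Of 4770, 377 (7.90%, 7.17 to 8.70) were centred within 1 kb of the start of a protein-coding or lncRNA gene (GENCODE 44), against 1226 of 10169 (12.1%, 11.4 to 12.7). The difference was -4.15 points (-5.13 to -3.14; odds ratio 0.626, Fisher's exact test, two-sided, adjusted p = 2.15e-14), and shared sites were higher on 2 of 23 chromosomes. The share depended on the lists missed. It was 6.24% (5.48 to 7.10) where SA2 of RPE-1 cells alone was missing, 12.8% (10.6 to 15.4) where SA1 of RPE-1 cells alone was missing, 14.6% (13.6 to 15.7) where both were missing and all CHM13 lists were present, and 17.5% (15.6 to 19.6) where a CHM13 list was missing. Against peaks that missed exactly 1 list, which held a gene start in 7.37%, the odds ratio was 1.08 (Fisher's exact test, adjusted p = 0.360), so that the lower share did not hold against them. Without the requirement of an RPE-1 SA2 peak the odds ratio was 0.439 (Fisher's exact test, adjusted p = 1.4e-52).

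GC content moved with these groups. Its median in the 300-bp window was 48.67% at shared sites and 50.67% at peaks that miss a list, and by lists missed it was 45.67% for SA2 of RPE-1 cells alone, 54.0% for SA1 alone and 53.0% for both. Stratified by GC quartile the odds ratio for gene starts was 0.693, and stratified by width quartile it was 0.511, both past the threshold by the Cochran-Mantel-Haenszel test. In the widest quartile of RAD21 peaks, 9.25% of shared sites and 18.9% of the other peaks lay at a gene start.

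The median distance to the nearest start was 18303 bp (17592 to 19305) at shared sites and 15915 bp (15268 to 16469) at the other peaks. Between 10 and 50 kb lay 45.1% of shared sites and 39.4% of the others, and over 100 kb lay 8.53% and 9.02%. Of the sites within 1 kb of a start, the nearest start belonged to a protein-coding gene at 46.7% of 377 shared sites (41.7 to 51.7) and at 63.6% of 1226 others (60.9 to 66.3), the rest being lncRNA genes. The 377 sites were richer in GC (median 57.0%) than the 4393 farther ones (48.0%). The CTCF core was present at 104 of 377 (27.6%) and at 1515 of 4393 (34.5%).

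**Figure D5:**
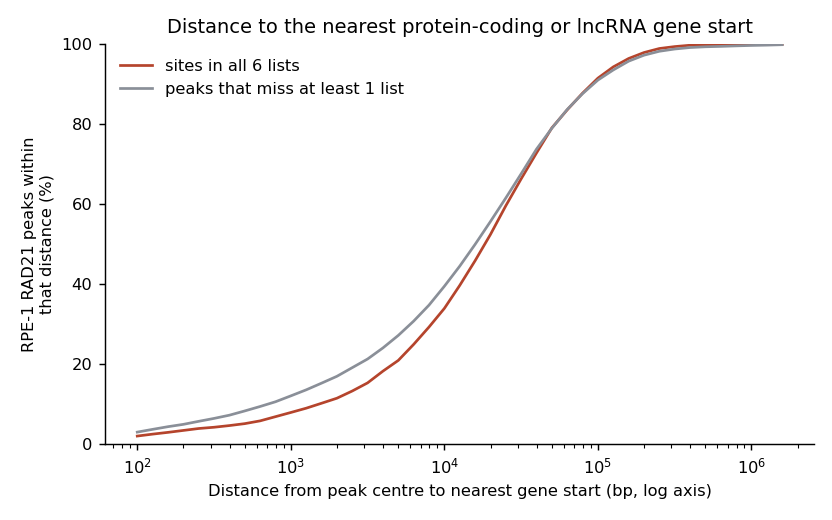
Cumulative percent of RPE-1 RAD21 peaks (y axis) by distance in bp from the peak centre to the nearest protein-coding or lncRNA gene start (x axis, log), for shared sites (red) and peaks that miss at least 1 list (grey). The red line lies below the grey one at short distances, with 7.90% against 12.1% within 1 kb, and the lines meet before 100 kb.

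Gene bodies and exons followed the same order. Shared sites were centred in the body of a protein-coding gene in 2116 cases (44.4%, 43 to 45.8), against 48.2% (47.2 to 49.1) of the other peaks, a difference of -3.81 points (-5.51 to -2.09; odds ratio 0.858, Fisher's exact test, adjusted p = 1.87e-05). They were centred in an exon in 469 cases (9.83%, 9.02 to 10.7), against 13.3% (12.6 to 14.0), a difference of -3.46 points (-4.52 to -2.37; odds ratio 0.711, Fisher's exact test, adjusted p = 1.84e-09). Against peaks that missed exactly 1 list, the odds ratio for gene bodies was 0.900 (Fisher's exact test, adjusted p = 0.026) and that for exons was 0.933 (adjusted p = 0.360), so the second no longer passed. Without the requirement of an RPE-1 SA2 peak they were 0.876 and 0.606, both past the threshold. Outside both exons and coding gene bodies lay 2529 shared sites (53.0%) and 48.9% of the others.

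Of 19970 protein-coding genes, 206 (1.03%) had a shared site within 1 kb of the start, and 1108 (5.55%) had any RPE-1 RAD21 peak there. For lncRNA genes these were 214 and 738 (3.93%) of 18756. Among 18 genes of cohesin and its regulators 1 had a shared site within 1 kb of its start, STAG1, which encodes SA1 itself. That site, 3:136752117-136753212, centred 262 bp from the start, had RPE-1 peaks of 1096 bp (RAD21), 383 bp (SA1) and 332 bp (SA2), and CHM13 peaks of 2469, 2325 and 1528 bp. Its centre lay in an exon of the lncRNA gene STAG1-DT, whose start was nearer, at 35 bp. STAG2, which encodes SA2, had an RPE-1 RAD21 peak 303 bp from its start that was not a shared site, and the nearest shared site was 3169972 bp away. Among 51 clustered protocadherins, cell surface proteins of neurons whose promoters are known CTCF targets, 4 had a RAD21 peak within 1 kb and 1 of these was a shared site, 160 bp from the start of PCDHGA11. Its RPE-1 peaks measured 761 bp (RAD21), 734 bp (SA1) and 384 bp (SA2), and its CHM13 peaks 665, 490 and 545 bp, so that it was among the 17 shared sites where the RPE-1 RAD21 peak was the widest of the 6.

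No shared site lay within 1 kb of a start in the other 5 lists. These are 39 HOX genes (2 with any RPE-1 RAD21 peak), 84 ribosomal protein genes (3), 14 pigment epithelium genes (4), 12 trophoblast genes (0) and 14 imprinted genes (1). The lack of a shared site stands against 1.03% of all coding genes that had one. The counts in brackets stand against 5.55% of coding genes with any RPE-1 RAD21 peak there. The 4 pigment epithelium genes were LRAT and RDH5, enzymes of the visual cycle, MERTK, a receptor for phagocytosis of outer segments, and TTR, the carrier transthyretin. Their RAD21 peaks lay 28, 794, 527 and 869 bp from the start, and the nearest shared sites lay 67310 to 220073 bp away. HOX genes, which pattern the body axis, lay closest to shared sites of all 7 lists, at a median of 13709 bp, against 125943.5 bp over all protein-coding genes. These genes sit in 4 compact clusters, so distances of neighbouring genes are not independent. The shortest were at HOXD12 (2057 bp), HOXC8 (2847 bp), HOXA7 (3211 bp), HOXB8 (3409 bp), HOXA13 (3654 bp) and HOXB13 (4051 bp). HOXC5 and HOXB5, the 2 HOX genes with any RAD21 peak within 1 kb (284 and 301 bp), lay 26912 and 8153 bp from a shared site. No median distance to any RAD21 peak was computed, so the nearness cannot be called particular to shared sites.

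In all, 1957 protein-coding genes held at least 1 shared site within their body, and 2 held 5 or more. The genes named next were chosen for holding the most, so a high share of their RPE-1 RAD21 peaks follows in part from that choice. Over all RPE-1 RAD21 peaks, 31.9% were shared sites. The bodies of the named genes measured 0.288 to 1.22 Mb. Whether gene length or gene function goes with the number of shared sites was not tested. KALRN, a guanine nucleotide exchange factor of neuronal synapses with a body of 0.693 Mb on chromosome 3, held 7 of its 8 RPE-1 RAD21 peaks as shared sites. Their RPE-1 peaks were 423 to 594 bp wide (RAD21), 287 to 565 bp (SA1) and 313 to 452 bp (SA2). Their CHM13 peaks were 698 to 982 bp wide (RAD21), 366 to 799 bp (SA1) and 507 to 907 bp (SA2). NTM, which encodes the adhesion protein neurotrimin, held 5 of 7. The read-through gene IQCJ-SCHIP1 held 4 of 8, KCNMA1, a calcium-activated potassium channel, 4 of 8, and MED12L, a Mediator subunit, 4 of 5. NAV1 held 4 of 4 and its relative NAV2 held 4 of 7, both neuron navigator genes. NRG1, the growth factor neuregulin 1, held 4 of 6, PALM2AKAP2 4 of 6 and AKAP6, an anchor of protein kinase A, 3 of 5. NAV1 had the highest density of these, 13.9 per Mb in 0.288 Mb, and NRG1 the lowest, 3.29 per Mb in 1.22 Mb. The tenth place is shared, since 44 genes held 3 or more.

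At 10 coding genes the stretch shared by all 6 peaks was centred within 24 bp of the start. They were ZNF843 (2 bp), TINCR (6), TEX53 (9), SPINT2 (9), ATN1 (15), TMC7 (15), RAB11FIP5 (20), ARL14EPL (22), TMBIM6 (22) and LIX1 (24), and the shared stretch was 256 to 398 bp long. SPINT2 encodes an inhibitor of serine proteases, ATN1 the corepressor atrophin 1 and TMBIM6 a protein of the endoplasmic reticulum that restrains cell death. TINCR and SPINT2 held 1 CTCF core match each and the other 8 held none, RAB11FIP5 as shown above. At TMBIM6 the CHM13 RAD21 peak was 2624 bp wide, and its RPE-1 RAD21 peak was 512 bp.

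The locus used by the study as a ChIP-PCR control on chromosome 20 was a shared site. The RPE-1 RAD21 peak 20:1503601-1504079 overlapped the amplicon, in intergenic sequence 12253 bp from the start of SIRPB2. Its RPE-1 peaks measured 479 bp (RAD21), 385 bp (SA1) and 363 bp (SA2), each below the median over shared sites. Its CHM13 peaks measured 890 bp (RAD21), 725 bp (SA1) and 765 bp (SA2). It held no CTCF core match.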

How the data were processed

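ChIP-seq peak lists of RAD21, SA1 and SA2 were used for RPE-1 and CHM13 cells on hg38, and the lists on CHM13 v1.0 for the number of sites and of peaks. The deposited peak lists used here hold positions in bp and no score. Coverage tracks and reads were not used here. The authors aligned paired reads with bwa, filtered them with samtools, called peaks with macs for each replicate and merged replicates with GenomicRanges, keeping loci seen in more than 1 replicate. They state these steps for CHM13 v1.0, and hg38 is named in the submitters' processing notes. Read depth is not part of the lists, so no value is scaled by it.

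Overlaps used a minimum of 1 bp. Genes were from GENCODE 44 and sequence from hg38. A window was 300 bp around the peak centre. Shares were compared by Fisher's exact test, two-sided, with Benjamini-Hochberg adjustment over 4 shares, Wilson 95% intervals and Newcombe 95% intervals of differences, in Python 3.11.15 with numpy 2.4.6, scipy 1.17.1, statsmodels 0.14.6 and pysam 0.24.0. Overlap, motif and share functions were tested on simulated data. The hg38 sequence used here does not mark repeats, so the planned share of repeat bases was not computed.

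The sites and the gene lists were chosen with earlier results of these data known. Named were genes of 7 lists with a site within 1 kb of the start, the 10 coding genes with the most sites (ties in alphabetical order), the genes nearest to the 5 widest and 5 narrowest sites, those at the 3 fullest 100-kb bins, the closest pair and the 3 longest gaps, the 10 coding starts nearest to a shared stretch, and the ChIP-PCR locus. One of the 3 gaps is not reported here. Genes of the lists with no site within 1 kb, the repeat sequences of chromosomes X and 16 and the motif directions were chosen after their values were seen.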

Additional observations from a re-analysis of the deposited data

How the results depend on the processing

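No paired analysis was possible because each list pools its replicates, and for the same reason no replicate could be left out. No stricter peak threshold could be tried on the lists, whose peaks carry no score. The number of sites was 2970 with an overlap of 50% of both peaks and 8215 without the RPE-1 SA2 list, and in the other 13 settings it stayed within 1.5 times 4770. The odds ratio for the CTCF core was below 1 with a 100-bp window (0.944), on the CHM13 RAD21 centre (0.954) and by width quartile (0.984). It passed the threshold by chromosome (1.08), by GC quartile (1.09, added after seeing the data), against peaks that missed exactly 1 list (1.12) and with 50% overlap of both peaks (1.22). By width and GC quartile together, also added after seeing the data, it was 1.01 and did not pass. Against peaks that missed exactly 1 list, the odds ratio for gene starts turned to 1.08 and that for exons (0.933) no longer passed. The other 11 settings for gene starts, 8 for gene bodies and 7 for exons kept direction and significance. The median distance to a start was 34702 bp for protein-coding genes and 12390 bp for all annotated genes. The causes were not tested.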

Other observations

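In bins of 10 Mb with at least 20 RPE-1 RAD21 peaks (273 bins), the percent that were shared sites had a median of 31.6 (quartiles 27.0 and 36.8) and ran from 5.00 to 60.9. On chromosome 10 the percent changed along the chromosome. The 5 such bins from the first base to 50 Mb held 28.0, 29.5, 40.0, 26.7 and 28.9%. The 5 bins from 60 to 110 Mb held 43.5, 50.5, 46.9, 47.9 and 47.6%, and the last 3 held 35.6, 39.2 and 26.1%. These values are from pooled lists and were looked at after chromosome 10 was seen to have the highest percent. DNA copy number along the chromosome was not examined in either line, and the cause of the change was not tested.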
